A study of Homo sapiens with 2 samples.

Results

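The mRNAs of 8 genes of fatty acid oxidation and its control were followed: PPARA, CPT1A, CPT2, ACADM, ACADVL, HADHA, EHHADH and PDK4, chosen by name from the 19927 gene symbols counted. CPT1A was 2.96-fold higher in the library from cells treated with homochlorcyclizine, while CPT2, which acts after it in the same carnitine shuttle, was lower, with a ratio of 0.643. The 3 mitochondrial enzymes ACADM, ACADVL and HADHA and the peroxisomal enzyme EHHADH were lower as well, with ratios between 0.576 and 0.858. PPARA, the receptor that drives many of these genes in liver, was nearly level with a ratio of 1.12. PDK4 was barely detected, with 20 counts in one library and 43 in the other.

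Long-chain fatty acids enter the mitochondrial matrix as carnitine esters, which CPT1 enzymes make at the outer membrane and CPT2 turns back into acyl-CoA at the inner membrane. Acyl-CoA dehydrogenases, the trifunctional protein and a thiolase then shorten the chain, and liver can turn the acetyl-CoA released into ketone bodies. Peroxisomes shorten very long and branched chains with an enzyme set of their own. PPARA is a nuclear receptor that binds DNA with RXR, is activated by fatty acids and raises this programme in the fasting liver, and PDK4 spares pyruvate by switching off pyruvate dehydrogenase.

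Poly(A)-selected mRNA came from Huh7, an established human hepatocellular carcinoma line, grown in DMEM with 10% serum and harvested 48 h after a change to medium with DMSO, which is the solvent, or with homochlorcyclizine dihydrochloride, an antihistamine. Its dose is not stated in the labels. Each treatment is 1 library, with 38133894 counts for DMSO and 40791119 for the treated cells, so no test between conditions can be made and every difference is one between these 2 libraries. Levels are given as CPM, which are counts scaled to a library size corrected by TMM, and ratios are treated over DMSO. The range in brackets after a ratio is its 95% counting interval, which leaves out variation between cultures. In a bulk library, fewer cells with a transcript and less of it per cell cannot be told apart.

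The labelled cell type was checked on 9 hepatocyte and hepatoma genes, ALB and AFP among them, which were all measured and summed to 24342 CPM with DMSO and 22603 CPM after treatment. Muscle and adipocyte markers summed to under 1 CPM in each library, with MYH7, MYOD1, ADIPOQ, LEP and CIDEA at 0 counts in both. Fibroblast markers summed to 10.5 and 10.6 CPM and endothelial markers to 12.0 and 5.92 CPM, mostly COL1A1 and PECAM1. Of the leukocyte markers, LYZ stood at 446 and 527 CPM, while PTPRC, the defining one, had 2 and 6 counts.

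The stretches of DNA ahead of CPT1A and HADHA are shown because CPT1A was the member past 2-fold and because HADHA and HADHB, the 2 subunits of the trifunctional protein, start 307 bases apart in RefSeq and are read outwards from a common stretch. Sequences are from RefSeq on GRCh38.p14, the assembly of hg38, run 5′ to 3′ on the strand of the gene and end at the base before its start. CPT1A lies at chr11:68844278-68844527, minus strand, and HADHA at chr2:26244633-26244882, minus strand. Capitals in HADHA mark the 194 bases that also lie within the 250 bases ahead of HADHB. No motif was found in CPT1A, so nothing is in capitals there.
CPT1A: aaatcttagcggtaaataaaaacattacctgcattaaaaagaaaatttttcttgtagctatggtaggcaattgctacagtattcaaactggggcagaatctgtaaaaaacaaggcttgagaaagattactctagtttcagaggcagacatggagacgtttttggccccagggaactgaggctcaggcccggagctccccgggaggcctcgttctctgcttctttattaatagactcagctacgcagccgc
HADHA: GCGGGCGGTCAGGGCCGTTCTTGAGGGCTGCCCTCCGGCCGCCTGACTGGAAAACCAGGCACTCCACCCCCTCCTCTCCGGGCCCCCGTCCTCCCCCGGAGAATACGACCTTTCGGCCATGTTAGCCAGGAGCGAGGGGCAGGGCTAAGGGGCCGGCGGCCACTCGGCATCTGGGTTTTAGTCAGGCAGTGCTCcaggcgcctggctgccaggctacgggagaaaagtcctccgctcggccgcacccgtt
The CPT1A stretch has a GC content of 44.4% and the HADHA stretch one of 68.8%.

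Of the 8 members, 7 had a 300-base window around a start site (250 bases before, 50 after), in 9 windows since PPARA and ACADVL have several starts, and EHHADH did not. On either strand, none of the 9 windows held the DR1 element of PPARA with RXR (AGGTCA, any base, AGGTCA), or its single repeat AGGTCA, which overlaps it. Neither did they hold the estrogen-related receptor element TNAAGGTCA, which also overlaps AGGTCA, the forkhead element GTAAACA, the E-box CACGTG or the cyclic AMP element TGACGTCA. Of 35116 windows, 0.0228% held DR1, 13.8% AGGTCA, 0.951% TNAAGGTCA, 3.42% GTAAACA, 7.26% CACGTG and 1.85% TGACGTCA. Exact DR1 matches were so rare that their absence from 9 windows is no result about the members. Inexact matches and sequence outside the windows were not searched.

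PPARA (chr22:46150526-46243756) was at 60.7 CPM with DMSO and 67.9 CPM after treatment, a ratio of 1.12 (1.06 to 1.18). The treated library was slightly higher, and 63.8% of the 12353 measured genes, those that averaged 1 CPM or more, had a lower log2 ratio. Its level per length, in FPKM (fragments scaled to gene length and library total), was 6.69 and 7.46. PPARG, a relative best known from fat cells, was the more abundant receptor mRNA per length at 36.5 and 52.3 FPKM. That is 5.45 times PPARA in the DMSO library (5.16 to 5.76) and 7.01 times in the treated library (6.68 to 7.35). Those intervals leave out error in the lengths, which the deposited values imply to be 2101 bases for PPARG and 9092 for PPARA. In CPM PPARG was closer to PPARA, at 76.5 with DMSO and 110 after treatment. PPARD, the third receptor, was at 5.52 and 6.96 FPKM. The 3 receptors were all higher in the treated library, with ratios of 1.12, 1.44 (PPARG, 1.37 to 1.51) and 1.27 (PPARD, 1.16 to 1.38), and none reached 2-fold.

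CPT1A (chr11:68754620-68844277), the liver form of the enzyme that commits fatty acids to mitochondrial entry, was at 80.9 CPM with DMSO and 239.7 CPM after treatment. Its ratio of 2.96 (2.84 to 3.09) was higher than that of 98.4% of measured genes. By the size rule, a ratio of at least 2-fold on the log2 scale with an interval that excludes 1, CPT1A was the 1 of 7 measured members past it. Among all measured genes, 5.81% were past that rule as higher, 5.10% as lower and 10.9% in either direction. A count of 1 among 7 genes is therefore no result about the group. At 1.5-fold CPT1A was still the 1 higher member, and CPT2 and EHHADH were lower, where 14.1% of all measured genes were higher and 14.1% lower.

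CPT2 (chr1:53196824-53214197) was at 57.4 CPM with DMSO and 36.9 CPM after treatment, a ratio of 0.643 (0.602 to 0.687), lower but short of 2-fold. The pair changed places per length, while in CPM CPT1A was the higher in both libraries. Per length, CPT1A was at 17.9 FPKM and CPT2 at 21.6 FPKM in the DMSO library, a ratio of CPT1A to CPT2 of 0.829 (0.784 to 0.876). In the treated library they were at 52.7 and 13.8 FPKM, a ratio of 3.82 (3.62 to 4.04).

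ACADVL (chr17:7217125-7225266), which opens the oxidation of very long acyl chains, was at 122.9 CPM with DMSO and 98.3 CPM after treatment, a ratio of 0.800 (0.766 to 0.834). ACADM (chr1:75724709-75763679), the medium-chain dehydrogenase, was at 78.9 and 61.8 CPM, a ratio of 0.783 (0.742 to 0.826). HADHA (chr2:26190635-26244632), the trifunctional subunit with the hydratase and hydroxyacyl dehydrogenase activities, was at 188.2 and 161.5 CPM, a ratio of 0.858 (0.830 to 0.888). The 3 enzymes were lower to a like, modest extent, and between 24.7% and 33.3% of measured genes had a lower log2 ratio than they did. The order of ACADVL above ACADM per length was kept, at 1.70 times (1.62 to 1.78) in the DMSO and 1.74 times (1.65 to 1.83) in the treated library.

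EHHADH (chr3:185190624-185254049), the peroxisomal enzyme that carries out the same pair of middle steps as HADHA, was at 66.5 CPM with DMSO and 38.3 CPM after treatment, a ratio of 0.576 (0.540 to 0.614). It was the lowest ratio among the members, with 8.27% of measured genes lower still. Per length, HADHA exceeded EHHADH 3.49 times in the DMSO library (3.33 to 3.65) and 5.20 times in the treated library (4.92 to 5.50), so the peroxisomal transcript was lower by more than its mitochondrial counterpart.

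PDK4 (chr7:95583499-95596516), the pyruvate dehydrogenase kinase that PPARA and FOXO factors control, had 20 counts (0.523 CPM) with DMSO and 43 (1.06 CPM) after treatment. The ratio was 2.02 (1.16 to 3.62), an interval too wide to place it above or below 2-fold, and its mean was under the 1 CPM filter. It made up 0.937% and 1.49% of the summed FPKM of the 4 PDK genes.

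**Figure D1:**
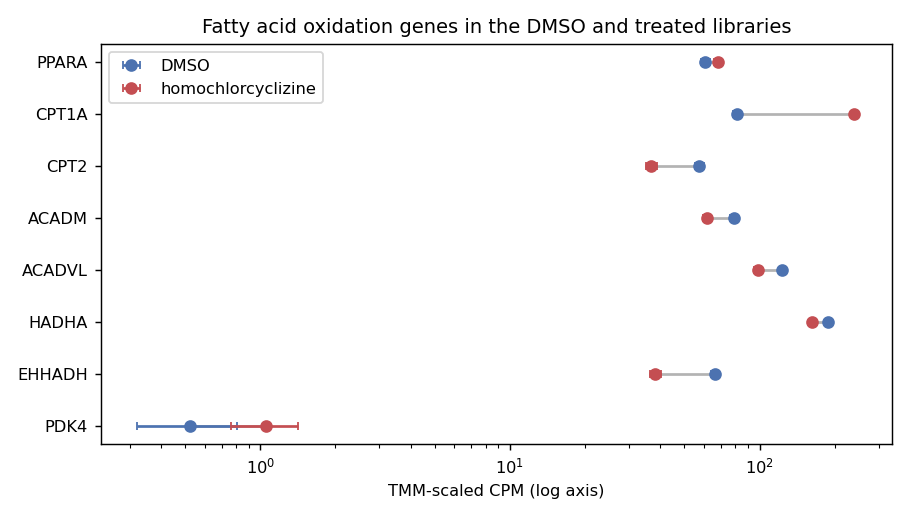
TMM-scaled CPM (log axis) of the 8 genes in the DMSO library (blue) and the homochlorcyclizine library (red), 1 library each, with 95% counting intervals as bars. CPT1A lies far to the right in the treated library, at 239.7 against 80.9 CPM, the 5 other enzymes of oxidation lie to the left, PPARA is slightly to the right, and the 2 intervals of PDK4 overlap.

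All 8 intervals excluded a ratio of 1, as did those of 77.8% of measured genes, so that at this depth an interval clear of 1 sets no gene apart. The median log2 ratio of the 7 measured members was -0.32, against -0.01 over all measured genes. In the DMSO library the order per length was HADHA, ACADVL, ACADM, CPT2, EHHADH, CPT1A, PPARA and PDK4, in which the neighbours EHHADH (18.4 FPKM) and CPT1A (17.9 FPKM) had overlapping counting intervals. In the treated library CPT1A stood second, at 52.7 FPKM, and its interval overlapped that of HADHA at 54.8 FPKM. The other 7 kept their order among themselves.

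**Figure D2:**
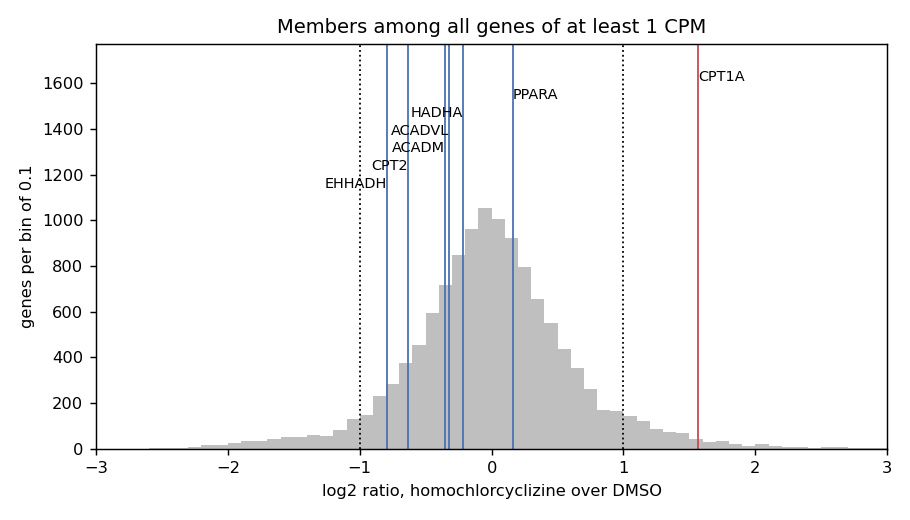
Histogram of the log2 ratio (treated over DMSO, prior count of 1) of the measured genes, shown from -3 to 3, with lines at the 7 measured members and dotted lines at 2-fold. CPT1A at 1.57 stands in the right tail, and the 5 lower members lie between -0.80 and -0.22, inside the bulk of genes.

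Lists of the surrounding pathway held 147 further genes, of which 124 were measured. The lists, like the members, were chosen with earlier results of these data known. Some genes of the pathway are not reported here and are left out of these lists and their counts. Of the 124, 6 were past the size rule as higher and 3 as lower, against 5.81% and 5.10% of all measured genes, and their median log2 ratio was -0.08.

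In the carnitine shuttle and its supply, 10 of 11 genes were measured, 2 were past 2-fold upward and none downward, against 5.81% and 5.10% of all measured genes. A ratio under 1 was found for 7 of them, and for 51.1% of all measured genes. The higher pair was CPT1A and BBOX1, the last enzyme of carnitine synthesis, at 1.18 CPM with DMSO and 3.98 CPM after treatment, a ratio of 3.38 (2.42 to 4.81) where an antisense gene overlaps. CPT1B, the muscle form, was at 19.6 and 34.7 CPM, a ratio of 1.77 (1.62 to 1.93), with reads that could come from the CHKB-CPT1B readthrough. CPT1A took 71.0% of the summed CPT1 FPKM with DMSO and 80.4% after treatment, and CPT1C, the brain form, had 0 and 2 counts. SLC25A20, the carrier that moves acylcarnitines inward, had a ratio of 0.684 (0.643 to 0.727), like CPT2, and CROT, which makes carnitine esters in peroxisomes, one of 0.531 (0.454 to 0.621).

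Malonyl-CoA, the product of acetyl-CoA carboxylase, inhibits CPT1. Of 10 measured genes that make, remove or control it, none passed 2-fold, where 10.9% of all measured genes did in either direction. ACACA, the lipogenic carboxylase, was at 194 CPM with DMSO and 290 CPM after treatment (interval of the ratio 1.45 to 1.54) and ACACB, the form at the mitochondrial surface, had a ratio of 0.655 (0.577 to 0.743). MLYCD, which degrades malonyl-CoA, had a ratio of 0.941 (0.828 to 1.07), where a gene on the same strand overlaps and may share reads. PRKAA2, a catalytic subunit of AMPK, had one of 1.13 (1.04 to 1.23). PRKAA1, the other catalytic subunit, named after its values were seen, was at 274 CPM with DMSO and 252 CPM after treatment, a ratio of 0.918 (0.893 to 0.944).

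Uptake and activation of fatty acids went both ways, with 2 of 11 measured genes past 2-fold upward and 1 downward, against 5.81% and 5.10% of all measured genes. FABP1, the liver fatty acid binding protein, likewise named after its values were seen, was at 693 CPM with DMSO and 517 CPM after treatment (ratio 0.746, 0.733 to 0.760). ACSL1, an acyl-CoA synthetase of the outer mitochondrial membrane and endoplasmic reticulum, was at 41.1 CPM with DMSO and 104 CPM after treatment (ratio 2.52, 2.38 to 2.67). The fatty acid transporter SLC27A1 was 2.84-fold higher (1.96 to 4.19) at a low level, 1.02 against 2.90 CPM, where a gene on the other strand overlaps. ACSL5 was 1.77-fold higher (1.44 to 2.18). The binding protein FABP5, whose reads may be shared with its pseudogenes, had a ratio of 0.410 (0.395 to 0.426).

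**Figure D3:**
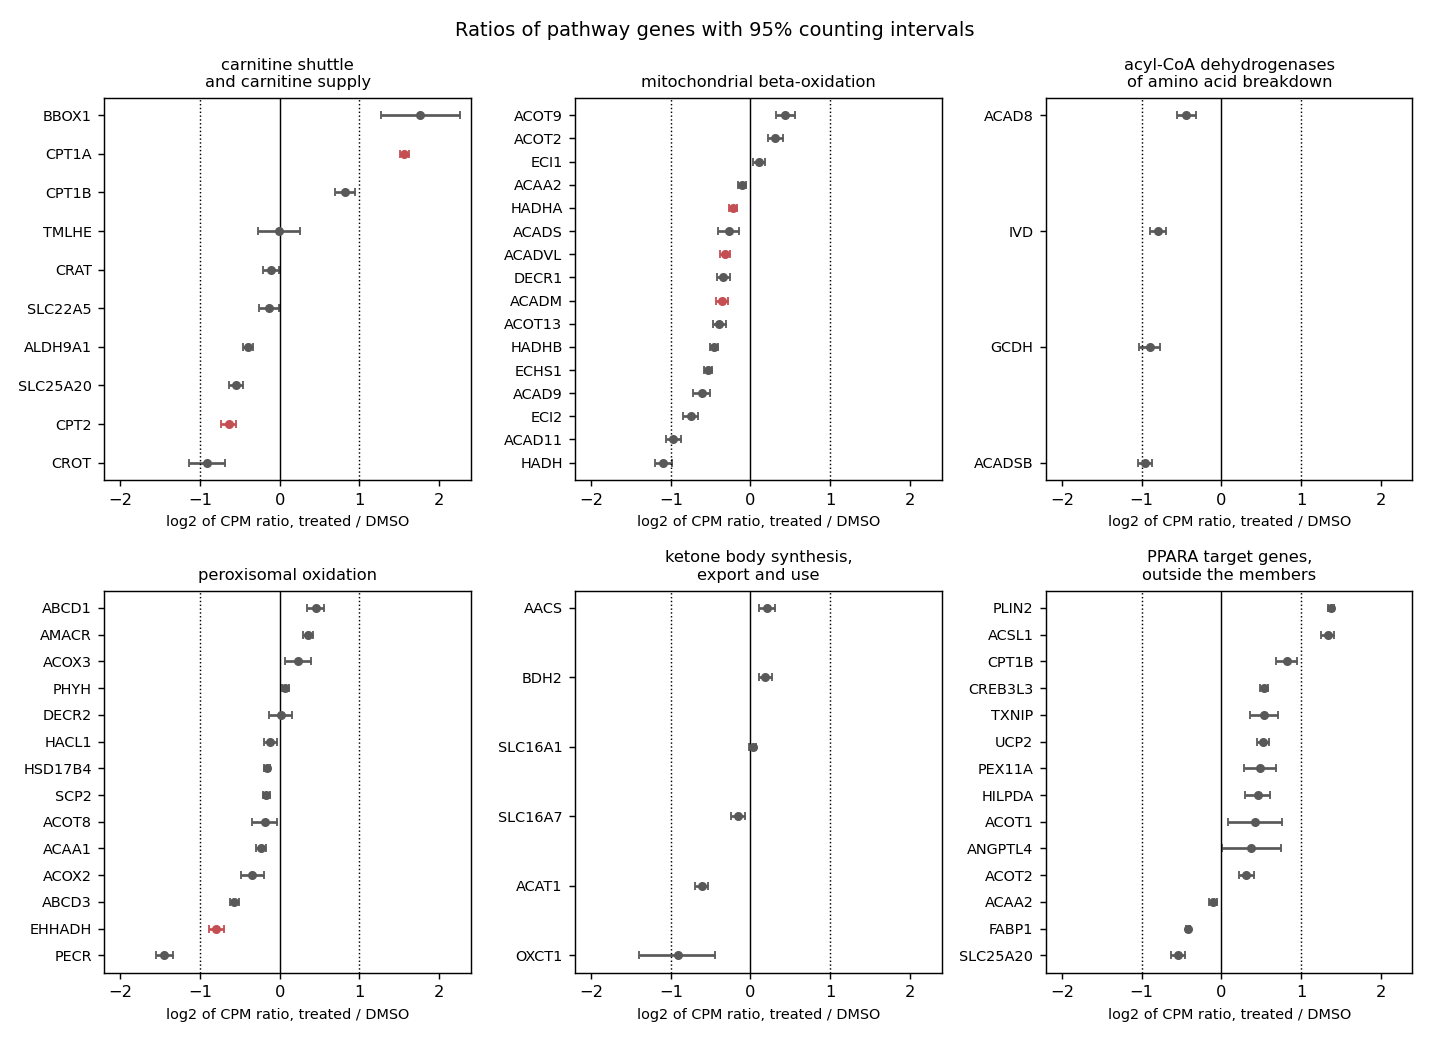
Log2 of the CPM ratio (treated over DMSO) with 95% counting intervals for the measured genes of 6 lists, members in red, with a line at 0 and dotted lines at 2-fold. In the mitochondrial list 13 of 16 points lie left of 0 and in the PPARA target list 11 of 14 lie right of it. Of all measured genes, 51.1% had a ratio below 1.

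In mitochondrial beta-oxidation 16 of 17 genes were measured, 13 of them with an interval wholly below 1, against 40.0% of all measured genes, and the median log2 ratio was -0.35. None was 2-fold higher, and HADH, the dehydrogenase of shorter hydroxyacyl chains, was the 1 gene past 2-fold. Of all measured genes, 5.81% were past it as higher and 5.10% as lower. HADH was at 55.3 CPM with DMSO and 25.9 CPM after treatment, a ratio of 0.468 (0.435 to 0.505). HADHB, the thiolase subunit that pairs with HADHA, had a ratio of 0.729 (0.702 to 0.757). Per length, HADHA was 0.810 times HADHB in the DMSO (0.783 to 0.839) and 0.954 times in the treated library (0.919 to 0.991). ECI2, an enoyl-CoA isomerase, had a ratio of 0.594 (0.555 to 0.635). The 3 genes above 1 were the thioesterases ACOT9 and ACOT2, the second of which has the close copy ACOT1, and the isomerase ECI1.

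The listed acyl-CoA dehydrogenases that were measured were all on 1 side. This grouping was made after the values were seen and draws on 2 of the lists, so a relative outside them was not examined. Each of the 9 measured genes of the grouping had an interval wholly below 1, where 40.0% of all measured genes did. Against 10.9% of all measured genes, none of the 9 reached 2-fold, and their median log2 ratio was -0.61. Among them, ACADS, of short chains, had a ratio of 0.827 (0.757 to 0.904) and ACAD9, also an assembly factor of complex I, one of 0.655 (0.608 to 0.705). ACAD11 had one of 0.511 (0.480 to 0.544), where overlapping genes may share reads. The 4 relatives that break down amino acids had lower ratios than ACADM and ACADVL, though the interval of ACAD8 overlapped theirs. The ratios were 0.515 for ACADSB (0.486 to 0.545), 0.537 for GCDH (0.490 to 0.589), 0.576 for IVD (0.538 to 0.617) and 0.737 for ACAD8 (0.677 to 0.802). ACADL, the long-chain form, had 0 counts in both libraries, a limit of 0.0785 CPM with DMSO and of 0.0737 CPM after treatment (3 counts).

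These dehydrogenases pass electrons to the flavoprotein ETF, and its 4 genes did not share a direction. ETFA had a ratio of 0.835 (0.814 to 0.855) and ETFB, its partner subunit, one of 1.22 (1.18 to 1.26). Reads of ETFB may be shared with AC008750.8, which overlaps it by 16046 bases on the same strand. ETFDH, which hands the electrons to ubiquinone, had one of 0.961 (0.869 to 1.06) and ETFRF1 one of 0.895 (0.808 to 0.991).

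In peroxisomal oxidation 14 listed genes were measured, with a median log2 ratio of -0.16. An interval wholly below 1 was found for 9 of them, and for 40.0% of all measured genes. PECR, a trans-enoyl-CoA reductase, was past 2-fold, at 64.1 CPM with DMSO and 23.5 CPM after treatment, a ratio of 0.367 (0.340 to 0.396). It was the 1 gene of this list past 2-fold, where 10.9% of all measured genes were past it in either direction. Its reads may be shared with MREG, which overlaps it by 37768 bases on the same strand. Next to EHHADH in size came ABCD3, a fatty acid transporter of the peroxisomal membrane, with a ratio of 0.674 (0.647 to 0.703). Of 14 measured peroxisome biogenesis genes PEX3, a membrane assembly factor, had a ratio of 0.600 (0.540 to 0.667) and PEX14, a part of the import pore, one of 0.730 (0.656 to 0.811). PEX11A, which elongates peroxisomes, had one of 1.40 (1.22 to 1.61).

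Among the ketone body genes ACAT1, the thiolase that makes acetoacetyl-CoA, was at 84.2 CPM with DMSO and 55.1 CPM after treatment, a ratio of 0.654 (0.619 to 0.691). OXCT1, needed to use ketones and low in liver, had a ratio of 0.531 (0.380 to 0.736) at 2.77 against 1.47 CPM. AACS, a cytosolic synthetase, had one of 1.15 (1.07 to 1.23) and the dehydrogenase BDH2 one of 1.14 (1.08 to 1.21). BDH1, which makes hydroxybutyrate, had 17 and 59 counts, a ratio of 3.26 (1.87 to 5.96) under the 1 CPM filter.

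Known PPARA target genes outside the members split. Of 14 measured and reported here, 11 had an interval wholly above 1, against 37.8% of all measured genes, with a median log2 ratio of 0.47. This list leaves out the members, many of which PPARA also drives in liver. Of the 7 measured members, 5 had an interval wholly below 1, against 40.0% of all measured genes. The other 2 had one wholly above 1, and 1 of these was PPARA itself. PLIN2, which coats lipid droplets, was at 208 CPM with DMSO and 539 CPM after treatment (ratio 2.60, 2.53 to 2.66). PLIN2 and ACSL1 were the 2 of 14 past 2-fold as higher, against 5.81% of all measured genes. ANGPTL4, a lipase inhibitor, was at 2.83 and 3.66 CPM. FGF21, a fasting hormone, had 3 counts in the DMSO and 15 in the treated library, a ratio of 4.69 (1.33 to 25.3). The 3 targets of this list below a ratio of 1 were SLC25A20, FABP1 and, also named after its values were seen, ACAA2, a mitochondrial thiolase, at 0.929 (0.896 to 0.964).

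Of 20 measured receptors, partners and coregulators, LPIN1, a phosphatidate phosphatase that also coactivates PPARA, was the 1 past 2-fold. Of all measured genes, 10.9% were past it in either direction. LPIN1 was at 49.7 CPM with DMSO and 143 CPM after treatment (ratio 2.87, 2.72 to 3.02). RXRA, the partner receptor, had a ratio of 1.24 (1.17 to 1.31) and SIRT1, a deacetylase, one of 1.64 (1.51 to 1.79). The coactivators PPARGC1A and PPARGC1B differed in sign. PPARGC1A had 24 and 52 counts (ratio 2.03, 1.23 to 3.45) under the filter, and PPARGC1B a ratio of 0.610 (0.550 to 0.675).

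**Figure D4:**
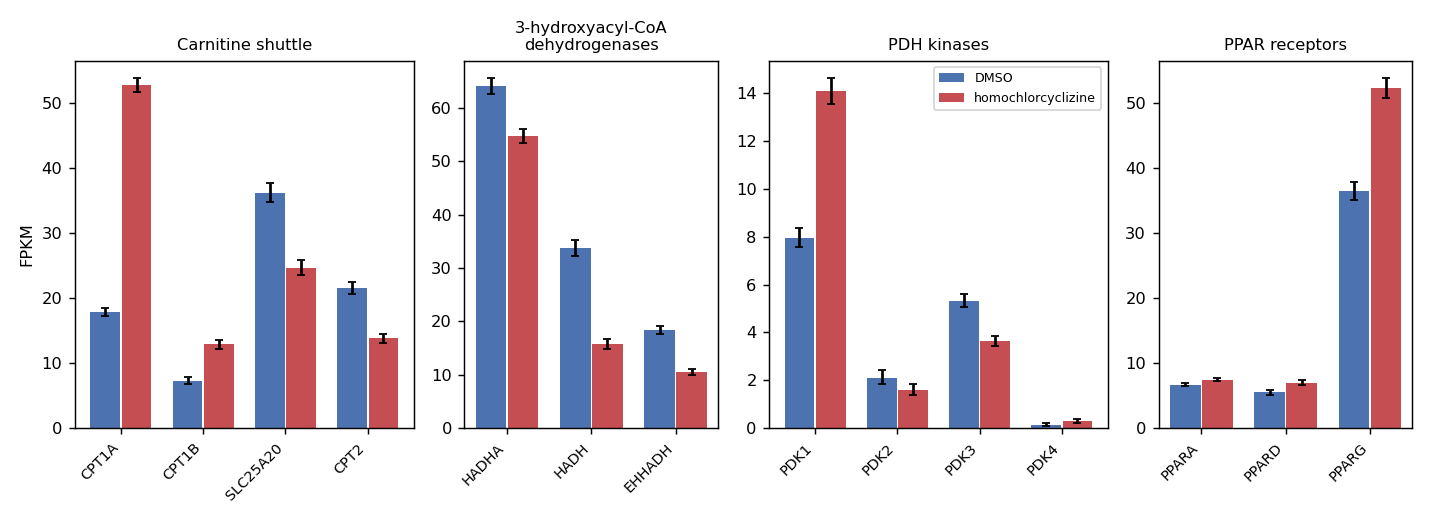
FPKM of related genes in the DMSO (blue) and homochlorcyclizine (red) libraries, 1 library each, on linear axes from 0 that differ between panels, with 95% counting intervals. In FPKM, CPT1A passes CPT2 and SLC25A20 in the treated library, and HADH and EHHADH are lower there. PDK1 has the highest FPKM of the PDK genes in both, and PPARG exceeds PPARA and PPARD in FPKM in both.

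Pyruvate dehydrogenase sets how much sugar carbon competes with fatty acids. PDK1, a hypoxia-responsive kinase, was the main PDK mRNA per length, with 51.2% of the summed PDK FPKM in the DMSO and 71.8% in the treated library. Its ratio was 1.78 (1.66 to 1.90). In CPM with DMSO it was near PDK3, at 37.3 against 38.4. PDK3 and PDK2 were lower in the treated library, with ratios of 0.684 (0.631 to 0.740) and 0.765 (0.625 to 0.936). The opposing phosphatase PDP1 was at 23.5 and 53.3 CPM (ratio 2.26, 2.09 to 2.45), and PDP2 had a ratio of 1.47 (1.36 to 1.59). PDP1 was the 1 of 13 measured genes of this list past 2-fold, where 10.9% of all measured genes were past it in either direction. Both a kinase that switches the complex off and a phosphatase that switches it on were therefore higher. In omega-oxidation, which starts from the methyl end in the endoplasmic reticulum, 3 of 7 genes were measured: CYP4F3 had a ratio of 1.46 (1.32 to 1.62), CYP4F12 one of 1.03 (0.930 to 1.13) and ALDH3A2 one of 0.798 (0.762 to 0.835).

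The labels do not state a strand setting for the counting, so reads of a gene and of one on the other strand cannot be told apart where they overlap. In GENCODE release 29, CPT2 overlaps the antisense gene AL606760.2 by 3993 bases and C1orf123 by 99 bases, ACADVL overlaps DLG4 by 2717 bases, HADHA overlaps HADHB by 1557 bases, ACADM overlaps the pseudogene DLSTP1 by 1354 bases and EHHADH overlaps EHHADH-AS1 by 1332 bases, each on the opposite strand. On the same strand PPARA overlaps FP325332.1 by 2045 bases, ACADM overlaps RABGGTB by 1379 bases and EHHADH overlaps the pseudogene EIF2S2P2 by 982 bases. Small RNA genes overlap ACADVL (MIR324, 83 bases, opposite strand), ACADM (SNORD45C, 79 bases, same strand) and EHHADH (MIR5588, 63 bases, same strand). For genes outside the members, overlaps are given for some only.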

How the data were processed

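Per the labels, mRNA of Huh7 cells was sequenced in 1 DMSO and 1 homochlorcyclizine library. The authors deposited raw counts per gene for both and FPKM values per library. The build was hg38 per the submitters' processing notes, and the aligner, counter and annotation are not given in sources used here. The treated over DMSO ratio of deposited FPKM values differed from that of counts over totals by at most 3.13e-05%. Gene length cancels in that check, so it does not test the lengths. FPKM served to compare genes per length, with the deposited lengths taken as given.

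Library sizes were scaled with TMM (edgeR 4.0.16, R 4.3.3). Log2 ratios used a prior count of 1, and ratios carry exact 95% Clopper-Pearson intervals conditional on a gene's summed count (Python 3.11.15, scipy 1.17.1). FPKM and CPM intervals in plots are exact Poisson ones. All cover counting error only. Genes averaging 1 CPM or more counted as measured, and the size rule was 2-fold with an interval excluding 1. A count of 0 allows up to 3 counts. The calculation was tested on data simulated with counting error only, which checks the code and not variation between cultures. Gene positions are RefSeq's, counted from 1.

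Members and lists were chosen with earlier results of these data known. Named genes are the members, 25 partner genes whatever their values, list genes past the size rule, and the 3 largest changes of each list at a mean of at least 5 CPM. With 2 libraries a pattern is 1 ratio, so no gene of like pattern was sought. Some genes of the lists are not reported here and were left out of them. Alternatives were DESeq2 1.42.0 size factors, total and upper-quartile scaling, another prior count, filter, fold and FPKM.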

Additional observations from a re-analysis of the deposited data

How the results depend on the processing

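Each of the 8 members kept its direction under DESeq2 size factors, total counts, upper-quartile scaling, a prior count of 5 and FPKM with a pseudocount of 0.1, and all 40 of these values lay within the gene's counting interval. The median log2 ratio of the members ran from -0.33 to -0.27 over the alternatives, the last with PDK4 counted in. A 1.5-fold rule added 2 lower members, CPT2 and EHHADH, where 14.1% of all measured genes were lower and 14.1% higher. Under that rule 11 pathway genes were higher (7 at 2-fold) and 18 lower (3 at 2-fold), and 1736 genes of the table were higher and 1736 lower, against 718 and 630 at 2-fold. With no filter on level 1197 genes were higher and 946 lower. No paired analysis was possible because each group holds 1 library, and for the same reason no library could be left out. PDK4, BDH1, PPARGC1A and FGF21 are limited by low counts.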

Other observations

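Some genes of low level lay under the 1 CPM filter and were chosen after their values were seen. SLC16A6, a monocarboxylate carrier that exports ketone bodies from hepatocytes, had 55 counts in the DMSO and 5 in the treated library, a ratio of 0.0853 (0.0267 to 0.211). VNN1, a pantetheinase and PPARA target, had 9 and 37 counts, a ratio of 3.86 (1.83 to 9.09). SLC16A1, the abundant carrier of the same family, was at 210 and 214 CPM, and its interval of 0.990 to 1.05 included 1. Spread between cultures was not measured for any of them.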
